A study of Arabidopsis thaliana with 4 samples.

Results

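The 7 genes described here are the 4 *Arabidopsis* homologs of human LSD1, *LDL1* (AT1G62830), *LDL2* (AT3G13682), *LDL3* (AT4G16310) and *FLD* (AT3G10390, also called *LDL4*), and the 3 histone deacetylase genes *HDA6* (AT5G63110), *HDA5* (AT5G61060) and *HDA19* (AT4G38130). They were taken by locus from the 32633 loci measured, and all 7 were found. Total RNA came from leaves of 3-week-old plants that had received no treatment and were kept in 12 h of light per day, with 2 biological replicates of each genotype. WT plants were Col-0. The *ldl1 ldl2* double mutant was made in Col-0 by crossing the T-DNA lines *ldl1-1* and *ldl2-1*, so it stands for 1 allele of each gene, and no single mutant was sequenced. The sources used here do not give how many plants entered a replicate, or what the replicate numbers 1 and 2 stand for. If the replicates did not come from separate plants, the p-values below measure only the spread between these libraries, which may be technical.

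LDL proteins are flavin-dependent amine oxidases that remove methyl groups from mono- and dimethylated lysine 4 of histone H3 (H3K4), a mark linked to transcription. Histone deacetylases take acetyl groups off histone tails. HDA6 and HDA19 belong to the RPD3 class, and HDA5 to the HDA1 class. The 2 activities are known to meet on the same chromatin in *Arabidopsis*: FLD associates with HDA6 and HDA5 in the repression of the flowering repressor gene *FLC*, and LDL1 and LDL2 associate with HDA6 in the repression of clock genes. HDA19 works mainly in SIN3-type complexes and has roles in embryonic, hormone and defense responses.

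Levels are given in FPKM as the authors computed them for each library, that is, fragments scaled by transcript length and by the size of the library. FPKM is a level per length, so levels of different genes can be compared. Where a pair of values is joined by "then", the first is replicate 1 and the second replicate 2. Differences are on the log2(FPKM + 1) scale, which understates the change of genes at low levels. A gene was tested when its mean over the 4 libraries was at least 1 FPKM, which held for 16905 loci and for 6 of the 7 genes, all but *LDL2*. From the spacing of the lowest nonzero values, the libraries were estimated to hold about 13300000 to 15200000 fragments. This is an estimate, and intervals made from it cover counting error only. The tissue label was checked with marker genes. All 6 leaf markers were detected, with a summed level of 42700 to 58500 FPKM, while the 4 root markers summed to 0.211 to 0.721 FPKM and the 3 seed markers to 0.0 to 0.13, with *COBL9*, *EXP7*, *CRC* and *OLEO1* at 0 in every library. The libraries stood apart by replicate number more than by genotype. On the log2(FPKM + 1) scale, Pearson's r across genes was at most 0.915 between libraries of 1 genotype and at least 0.954 between libraries of 1 number, where genes are not independent replicates.

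The gene models and coding sequences of RefSeq on TAIR10.1 show how far reads of these relatives can be told apart. *LDL1* lies at chr1:23264486-23267221 and is a single exon of 2736 bases. *LDL2* lies at chr3:4478873-4481767 with 2 exons. Their proteins, of 844 and 746 residues, were identical at 57.5% of 703 aligned positions, and LDL1 was about as close to FLD (56.6%) but not to LDL3 (37.6%). The longest identical run of coding bases was 14 between *LDL1* and *LDL2* and also 14 between *LDL1* and *FLD*. No stretch as long as a 100 bp read was identical in the pairs of *LDL1* with the other 3 homologs. The most alike stretches of that length in *LDL1* and *LDL2* are shown here because both genes are mutated, with the differing bases in capitals; they differ at 23 bases and lie at chr1:23266268-23266367 and chr3:4480923-4481022, both on the minus strand.
LDL1: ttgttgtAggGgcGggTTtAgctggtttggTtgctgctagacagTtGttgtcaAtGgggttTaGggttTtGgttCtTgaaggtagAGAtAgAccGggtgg
LDL2: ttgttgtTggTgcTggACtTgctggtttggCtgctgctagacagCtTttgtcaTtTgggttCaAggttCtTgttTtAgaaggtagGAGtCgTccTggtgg

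*HDA5* and *HDA18*, a deacetylase of the same class known from root epidermis patterning, had the longest identical coding run of the compared pairs that include 1 of the 7 genes. *HDA5* (chr5:24566783-24571072) and *HDA18* (chr5:24571095-24574387) lie in tandem on the minus strand, *HDA18* upstream, with 22 bases between them. Their proteins were identical at 65.2% of 584 aligned positions, and their longest identical coding run was 73 bases, still short of 1 read. In the most alike stretch of 100 bases, at chr5:24569768-24569867 and chr5:24573277-24573376, 3 bases differed. These, in capitals, are the bases that tell a read there apart, and the spacer between the genes (chr5:24571073-24571094) follows in lower case. All are read from the minus strand.
HDA5: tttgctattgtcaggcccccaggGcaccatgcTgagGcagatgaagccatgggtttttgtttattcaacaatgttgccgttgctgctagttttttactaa
HDA18: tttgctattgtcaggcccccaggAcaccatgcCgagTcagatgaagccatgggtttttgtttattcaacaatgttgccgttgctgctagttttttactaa
spacer: gaatctccaaattggtcaaact

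For *HDA6* (chr5:25315506-25318347, 6 exons) and *HDA19* (chr4:17896278-17899509, 7 to 8 exons), whose proteins were identical at 64.6% of 460 aligned positions, the most alike 100 coding bases held 18 differences, in capitals, and spanned 2 exons in each gene (chr5:25316717-25316910 and chr4:17897856-17898085, intron included, both minus strand). No stretch of read length was identical, and the longest identical run was 20 bases.
HDA6: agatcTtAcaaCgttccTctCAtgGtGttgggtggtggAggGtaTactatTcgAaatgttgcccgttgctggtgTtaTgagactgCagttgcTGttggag
HDA19: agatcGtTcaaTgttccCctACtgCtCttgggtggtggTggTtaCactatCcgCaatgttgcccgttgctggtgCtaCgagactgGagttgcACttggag

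*LDL3* (chr4:9217988-9226280) is the longest of the 7, with 8 to 11 exons and a protein of 1628 residues. It overlaps AT4G16330 on the opposite strand by 422 bases, and *FLD* (chr3:3229060-3232531) overlaps AT3G10405 on the opposite strand by 75 bases. The libraries were made with a stranded kit, but whether the quantification used the strand is not given in the sources used here. *HDA6* and AT5G63100 share 28 bases on the same strand. The part of the 3 genes' values that could come from these neighbours was not tested.

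The level of the mutated genes themselves came first. *LDL1* was measured at 4.365 then 5.001 FPKM in WT and 4.444 then 4.093 in *ldl1 ldl2*. The genotypes overlapped, with the *ldl1 ldl2* libraries at both sides of WT replicate 1. In means, WT plants were at 4.68 ± 0.45 FPKM and *ldl1 ldl2* plants at 4.27 ± 0.248 (SD, n = 2), a log2 difference of -0.11 with a standard error of 0.26 and a 95% interval from -0.81 to 0.59. The difference was smaller than that between the WT replicates, 0.16 log2 units (adjusted p = 1.0 from limma). In bulk leaf RNA, fewer cells that express a gene and less RNA per cell cannot be told apart, here and for all levels below. A value per gene adds up fragments on both sides of a T-DNA insertion, so a level near WT neither checks the label nor speaks of a working protein.

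*LDL2* was the lowest of the 7 and had the largest difference between genotypes. It was measured at 1.04 then 0.9437 FPKM in WT and 0.2809 then 0.6726 in *ldl1 ldl2*, so both mutant libraries lay below both WT libraries. The mean was 0.992 ± 0.0684 FPKM in WT plants and 0.477 ± 0.277 in *ldl1 ldl2* (SD, n = 2), a ratio of 0.481. Within replicate numbers 1 and 2 the ratio was 0.27 and 0.713, and the log2 differences of FPKM + 1 were -0.67 and -0.22, with a mean of -0.44. An exact permutation test of 2 libraries against 2 gave p = 0.333 (two-sided), which is the smallest p this design allows.

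The depth behind *LDL2* was low. The 2 WT values rested on about 43 and 39 fragments and the *ldl1 ldl2* values on about 11 and 29. With exact Poisson 95% intervals, *ldl1 ldl2* replicate 1 lay between 0.14 and 0.503 FPKM, below the intervals of both WT libraries, which started at 0.753 and 0.671. Replicate 2 of *ldl1 ldl2* lay between 0.45 and 0.966 FPKM and overlapped both. Such a pattern is common at this level: of 1238 loci with a mean between 0.5 and 1 FPKM, 234 (18.9%) also had both *ldl1 ldl2* libraries below both WT libraries. When loci down to a mean of 0.1 FPKM were admitted to limma, *LDL2* had an unadjusted p = 0.112 and an adjusted p = 1.0, and 0.0% of the 20332 loci passed in either direction. At this lower minimum, 8.94% of loci had both *ldl1 ldl2* libraries above both WT libraries and 13.9% had both below, as *LDL2* did. Without *ldl1 ldl2* replicate 1 the log2 difference was -0.25. *LDL1* stood on firmer ground, with about 161 to 202 fragments per library.

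**Figure D1:**
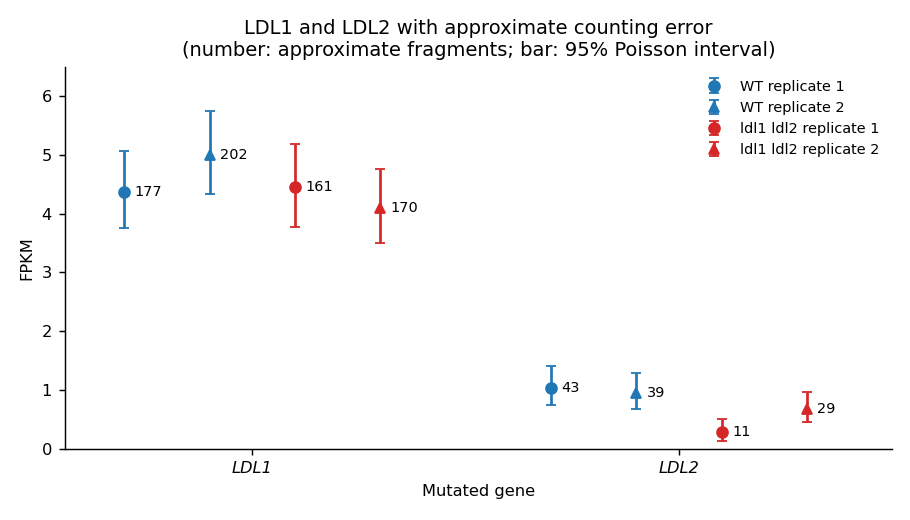
FPKM of *LDL1* and *LDL2* (vertical axis, linear from 0) in the 4 libraries, with circles for replicate 1 and triangles for replicate 2. Bars are exact Poisson 95% intervals of the approximate fragment number printed beside each point, counting error only. The 4 intervals of *LDL1* overlap, while the *LDL2* interval of *ldl1 ldl2* replicate 1, from 0.14 to 0.503, ends below the WT intervals.

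Within a library, a single scaling factor for that library drops out of a ratio. The ratio of *LDL2* to *LDL1* was 0.238 then 0.189 in WT and 0.0632 then 0.164 in *ldl1 ldl2*. The ratio was lower in both mutant libraries than in both WT libraries, and the gap between the mutant libraries was larger than that between replicate 2 of the 2 genotypes. Its mean was 0.214 ± 0.0351 in WT plants and 0.114 ± 0.0715 in *ldl1 ldl2* (SD, n = 2, exact permutation p = 0.333, two-sided). In every library *LDL1* was thus at least 4 times as high as *LDL2*.

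Whether the remaining homologs and the deacetylases differ in the double mutant is the next comparison. *LDL3*, known to remove H3K4 dimethylation along transcribed genes and to act in shoot regeneration, was at 3.98 then 5.215 FPKM in WT and 4.35 then 5.638 in *ldl1 ldl2*. *FLD*, a flowering activator through its repression of *FLC* that also acts in systemic resistance, was at 3.477 then 4.99 FPKM in WT and 3.471 then 4.648 in *ldl1 ldl2*. In both genes the genotypes overlapped, and the higher library of each genotype was replicate 2. The log2 difference of *LDL3* was 0.10 (0.104 and 0.095 in replicates 1 and 2), and that of *FLD* was -0.04 (-0.002 and -0.085). The 95% intervals reached from -0.69 to 0.89 for *LDL3* and from -0.88 to 0.79 for *FLD*.

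*HDA6*, which acts in gene silencing, rRNA gene dosage and flowering, was at 10.001 then 9.613 FPKM in WT and 9.755 then 8.126 in *ldl1 ldl2*. Of the 4 values only that of *ldl1 ldl2* replicate 2 stood off, and the genotypes overlapped. *HDA5* was at 9.712 then 21.66 FPKM in WT and 10.47 then 15.3 in *ldl1 ldl2*. Here the numbers, not the genotypes, set the libraries apart, since both libraries numbered 2 lay above both numbered 1. *HDA19* was at 36.83 then 56.94 FPKM in WT and 39.34 then 43.91 in *ldl1 ldl2*. WT replicate 2 was the highest library and WT replicate 1 the lowest, with both mutant libraries between them.

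None of the 6 tested genes passed an adjusted p of 0.05 (adjusted p = 1.0 for each, from limma with Benjamini-Hochberg adjustment over 16905 genes), and their unadjusted p-values ran from 0.654 to 0.896. This count has to be read against the whole table, where 0.0% of genes passed in either direction, no adjusted p lay under 0.755, and an unadjusted p under 0.05 was found for 394 genes. That fit leaves out the replicate number. With the replicate number as a block, 311 genes were higher and 37 lower in *ldl1 ldl2*, with 0 of the 6 genes among them. The log2 differences of the 6 genes ran from -0.19 in *HDA5* to 0.10 in *LDL3*, with a median of -0.12, beside a median of -0.04 over all tested genes. A missed threshold does not show equal levels. In the fit without the replicate number, the 95% interval was narrowest for *LDL1* and *HDA6*, the latter from -0.83 to 0.58. It was widest for *HDA5*, from -1.46 to 1.08, with both bounds larger than a 2-fold change. These intervals take in the spread between replicate numbers. With the number as a block, the standard errors of the 6 genes ran from 0.239 (*HDA6*) to 0.251 (*HDA5*). Without it, that of *HDA5* was 0.474.

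**Figure D2:**
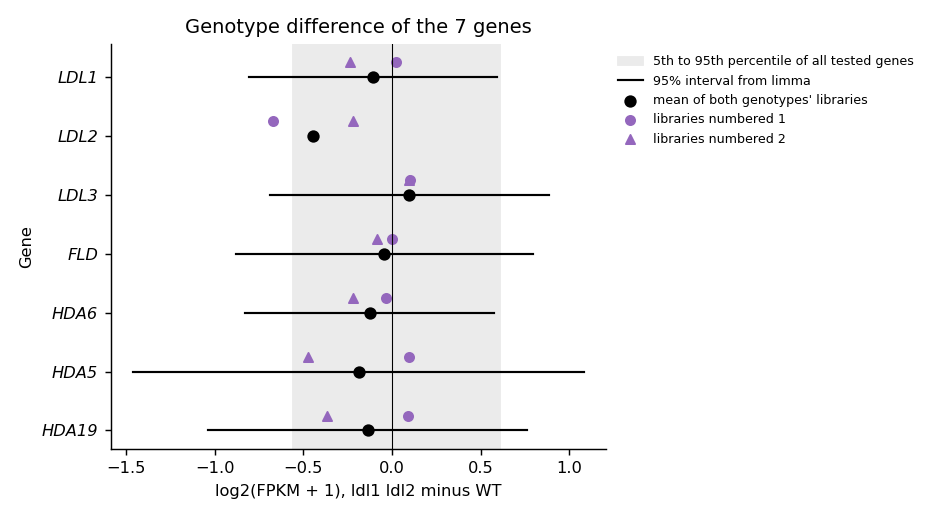
Log2 difference of FPKM + 1, *ldl1 ldl2* minus WT (horizontal axis), for each gene (vertical axis): black point, difference of the genotype means; black line, 95% interval from limma; purple circle and triangle, differences within replicate numbers 1 and 2; grey band, 5th to 95th percentile of all 16905 tested genes, from -0.56 to 0.61. All intervals include 0, and *LDL2* has none because it was not tested. The intervals come from the fit without the replicate number.

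Counted by library, 0 of the 6 tested genes had both *ldl1 ldl2* libraries above both WT libraries, as 8.25% of all tested genes did, and 0 had both below, as 13.3% did. The background split leans on library scaling: 1394 genes lay above and 2240 below as deposited, but 1861 and 1839 after rescaling each library by its median ratio. A 2-fold difference in 1 direction within both replicate numbers was seen in 0 of the 6 genes, with a background of 1.4% for higher and 0.148% for lower. Direction alone, at any size, was shared by both numbers in 3 genes. *LDL3* was higher in *ldl1 ldl2* both times (background 19.8%), and *FLD* and *HDA6* were lower both times (background 31.0%). *LDL3* and *HDA6* did the same with both rescalings, whereas *FLD* split in sign after median ratio rescaling (-0.02 and 0.02 in replicates 1 and 2). After quantile normalization *LDL1* was also lower both times (-0.015 and -0.176). The background was 26.3% higher and 25.7% lower after median ratio rescaling, and 22.4% and 29.4% after quantile normalization.

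Several of these genes were further apart between replicate numbers than between genotypes. Over all tested genes the libraries numbered 2 were higher by a median of 0.14 log2 units, so the values that follow are to be read against this shift. *HDA5* was 2.23 times as high in WT replicate 2 as in WT replicate 1 and 1.46 times as high in *ldl1 ldl2*, log2 differences of 1.08 and 0.51. *HDA19* had log2 differences of 0.61 and 0.15 in WT and *ldl1 ldl2*, *FLD* 0.42 and 0.34, and *LDL3* 0.32 and 0.31. *HDA6* went the other way, with -0.05 and -0.24. *LDL1* had 0.16 and -0.10, and *LDL2* -0.07 and 0.38.

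At any size, 4 of the 6 tested genes (*LDL3*, *FLD*, *HDA5* and *HDA19*) were higher in replicate 2 of both genotypes, where 47.2% of all tested genes were, and 1 (*HDA6*) was lower, where 30.6% were. These directions held with both rescalings, but *LDL1* then joined *HDA6* (for example, -0.03 and -0.17 after median ratio rescaling). After median ratio rescaling the background was 38.1% for higher and 38.5% for lower, and after quantile normalization 39.9% and 36.7%. None of the 6 was at least 2-fold apart in 1 direction in both genotypes, against a background of 5.02% higher and 4.34% lower in replicate 2. Since nothing in the labels gives the numbers a meaning, no test was made of them.

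**Figure D3:**
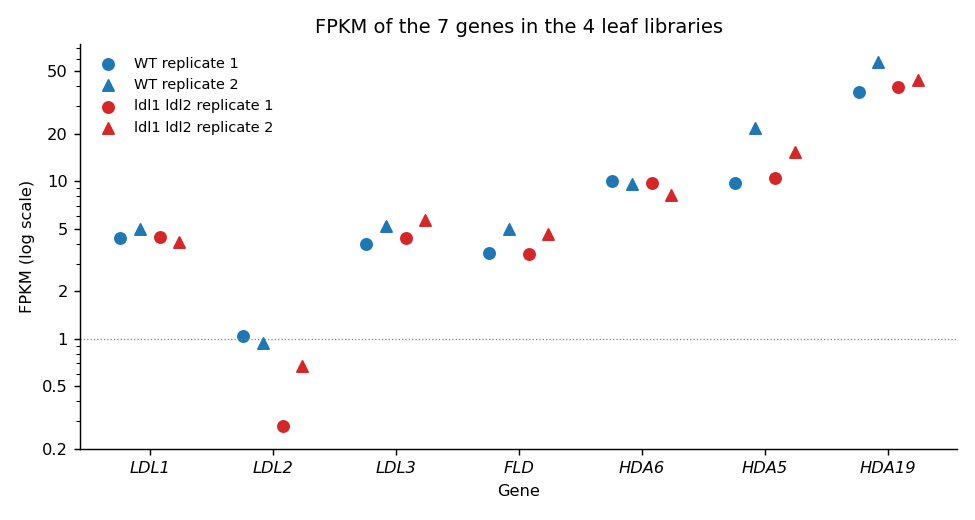
FPKM of the 7 genes on a log axis in WT (blue) and *ldl1 ldl2* (red), with circles for replicate 1 and triangles for replicate 2; the dotted line marks the minimum mean of 1 FPKM for a test. *HDA5* runs from 9.71 to 21.7 FPKM with both triangles above both circles, and *LDL2* is the only gene with both red points below both blue points.

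The levels of 3 clock genes went with replicate number in the same libraries. *CCA1*, a morning-phased gene, was at 50.45 then 3.849 FPKM in WT and 16.57 then 2.444 in *ldl1 ldl2*. *LHY*, its close partner, was at 22.91 then 0.2365 FPKM in WT and 8.917 then 0.3803 in *ldl1 ldl2*. *TOC1*, an evening-phased gene, was at 2.943 then 109.1 FPKM in WT and 3.484 then 88.03 in *ldl1 ldl2*. Markers of floral organs, all 4 of which were detected in at least 1 library, summed to 0.602 then 10.7 FPKM in WT and 2.78 then 4.89 in *ldl1 ldl2*, with *SEP3* in WT replicate 2 the highest single value at 4.46. Of 3 shoot meristem markers, *CLV3* was at 0 in every library, and the sum reached 1.12 FPKM in WT replicate 2 and at most 0.0619 in the rest. The part of harvest time or of other tissue in the replicate differences of *HDA5*, *HDA19*, *FLD* and *LDL3* was not tested.

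Ordered by mean level over the 4 libraries, *HDA19* stood first at 44.3 FPKM, at the 89.0th percentile of 27372 protein-coding genes. *HDA5* followed at 14.3 FPKM and *HDA6* at 9.37. The range of *HDA19* over libraries did not touch that of *HDA5*, but the ranges of *HDA5* and *HDA6* overlapped, and *HDA5* was the higher of the pair in 3 of 4 libraries. *LDL3* at 4.8 FPKM, *LDL1* at 4.48 and *FLD* at 4.15 formed a group whose neighbours overlapped, all lower than *HDA6* in every library. *LDL2* came last at 0.734 FPKM, at the 37.5th percentile, and its range lay below that of *FLD*. The 3 deacetylases were therefore all higher than the 4 LDL genes in each library.

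Ratios between the genes within a library do not change when a library is scaled by a single factor, as in median ratio rescaling. They were not computed after quantile normalization, which can change them. *HDA5* to *HDA6* was 0.971 then 2.25 in WT and 1.07 then 1.88 in *ldl1 ldl2*, so that the order of the pair changed between WT replicates (exact permutation p = 1.0 between genotypes, two-sided). *HDA19* to *HDA6* was 3.68 then 5.92 in WT and 4.03 then 5.4 in *ldl1 ldl2*. *LDL3* to *LDL1* stayed between 0.912 and 1.38 and *FLD* to *LDL1* between 0.781 and 1.14. Each of these ratios was higher in replicate 2 than in replicate 1 of both genotypes.

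The genes with the pattern over the 4 libraries nearest to those of the mutated genes were taken by root mean square distance between centred profiles of log2(FPKM + 1). For *LDL1* these were AT1G74910, an ADP-glucose pyrophosphorylase family gene, AT1G74270, a ribosomal protein L35Ae gene, and AT3G53580, a diaminopimelate epimerase family gene, at distances of 0.00687, 0.00821 and 0.0089. Such likeness was common, since 1112 of 16904 genes lay within 0.1 of *LDL1*. Near *LDL2* were *DEG14* (AT5G27660), a PDZ-domain protease gene, *AHL1* (AT4G12080), which encodes an AT-hook DNA-binding protein, and AT5G02450, a ribosomal protein L36e gene, at 0.0215, 0.0225 and 0.0233, among 144 of 16905 genes within 0.1. *DEG14* was at 1.791 then 1.568 FPKM in WT and 0.7571 then 1.276 in *ldl1 ldl2*, and *AHL1* at 2.137 then 1.933 and at 1.0 then 1.511. Both were lowest in *ldl1 ldl2* replicate 1, as *LDL2* was, which follows from their being picked by its pattern.

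The deacetylase family was followed beyond the named partners. Of 9 other RPD3/HDA1 genes, 5 were tested, 0 passed, and their median log2 difference was -0.05, beside -0.04 over all genes. *HDA15* had the lowest difference and *HDA8* the highest, -0.18 and 0.22. Of the 5, 4 were higher in replicate 2 of both genotypes (background 47.2%), and 3 after median ratio rescaling (background 38.1%). The exception as deposited was *HDA14*, at 39.92 then 36.94 FPKM in WT and 34.94 then 39.34 in *ldl1 ldl2*. *HDA2* was at 4.667 then 27.11 FPKM in WT and 6.732 then 21.81 in *ldl1 ldl2*, the only one at least 2-fold higher in replicate 2 of both genotypes (background 5.02%), and *HDA8* was at 15.33 then 47.02 and at 23.78 then 42.11. *HDA9*, which acts in flowering and leaf aging, was at 5.568 then 7.615 FPKM in WT and 5.042 then 6.797 in *ldl1 ldl2*.

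The remaining 4 genes were too low to test. *HDA18*, the tandem neighbour of *HDA5*, was at 0.1304 then 0.2276 FPKM in WT and 0.2178 then 0.158 in *ldl1 ldl2*, while *HDA5* was never under 9.71. *HDA7*, a close relative of *HDA6* with 64.9% identity of the aligned protein, was at 0.06351 and 0.1882 FPKM in WT and listed at 0 in both *ldl1 ldl2* libraries. *HDA17* was at 0.04311 to 0.5352 FPKM, and *HDA10* was listed at 0 except in *ldl1 ldl2* replicate 1. *HDA10* and *HDA17* share 1.69% and 2.2% of read-length coding stretches of *HDA9* exactly, so a single read there matches both genes. Whether the other read of the pair tells them apart was not tested.

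**Figure D4:**
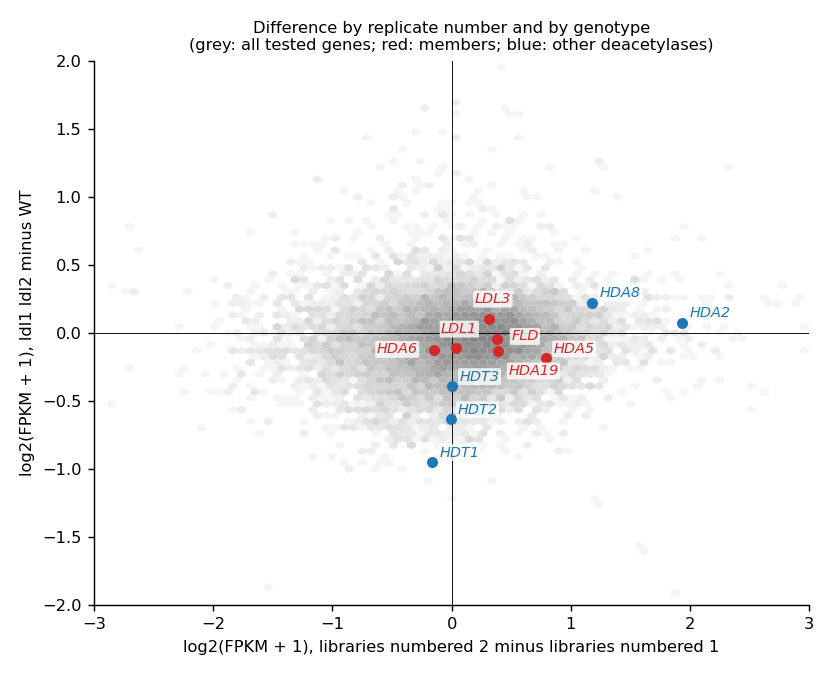
Each tested gene by its log2 difference between libraries numbered 2 and 1 (horizontal axis, mean of both genotypes) and between *ldl1 ldl2* and WT (vertical axis), on the log2(FPKM + 1) scale. Grey cells show the tested genes that fall within the axes, darker where there are more. Red points are the 6 tested genes of the 7. Blue points are 5 other deacetylase genes, *HDA2*, *HDA8*, *HDT1*, *HDT2* and *HDT3*, picked after their values were seen. The remaining tested deacetylase genes of the lists are not marked. The red points lie within 0.2 of 0 on the vertical axis and reach 0.79 on the horizontal one (*HDA5*), *HDA8* and *HDA2* lie far to the right, and *HDT1* lies lowest at -0.95.

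The plant-specific HD2-type genes and the sirtuin genes had lower values in *ldl1 ldl2*, though none passed the test. All 6 genes of this list were tested and 0 passed, with a median log2 difference of -0.35. *HDT1*, whose product is a nucleolar deacetylase, was at 6.079 then 6.616 FPKM in WT and 3.419 then 2.268 in *ldl1 ldl2*. Both mutant libraries were under both WT libraries. Its mean was 6.35 ± 0.38 FPKM in WT plants and 2.84 ± 0.814 in *ldl1 ldl2* (SD, n = 2), a log2 difference of -0.95 with a standard error of 0.29 (unadjusted p = 0.0281, adjusted p = 1.0, limma). No other gene of the family lists had an unadjusted limma p under 0.05 in this fit. With the replicate number as a block in limma, *HDT2* had an unadjusted p of 0.0257 and an adjusted p = 0.353.

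*HDT2* was at 39.0 then 46.22 FPKM in WT and 29.59 then 24.59 in *ldl1 ldl2*, a log2 difference of -0.64. *HDT3* was at 16.57 then 16.62 FPKM in WT and 12.39 then 12.45 in *ldl1 ldl2*, with log2 differences of -0.39 in each number. Its replicates differed by 0.004 and 0.007 log2 units in WT and *ldl1 ldl2* as deposited, but by -0.21 and -0.07 after median ratio rescaling, where the genotypes differed by -0.41 and -0.28 in replicates 1 and 2. *SRT1*, a nuclear sirtuin, was at 2.497 then 2.525 FPKM in WT and 2.02 then 1.635 in *ldl1 ldl2*. These 4 genes had both mutant libraries below both WT libraries, 4 of 6 where the background was 13.3%. They kept this with both rescalings, where the background was 10.9% after median ratio rescaling and 12.8% after quantile normalization. *SRT2*, a mainly mitochondrial sirtuin, and *HDT4* overlapped between genotypes. All 6 were lower in *ldl1 ldl2* within both numbers (background 31.0%). After either rescaling 5 of 6 were, since *HDT4* then turned to 0.08 or 0.05 in replicate 2. The background was then 25.7% with median ratio rescaling and 29.4% with quantile normalization. The list was drawn up with earlier results of these data known and was given no test of its own.

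**Figure D5:**
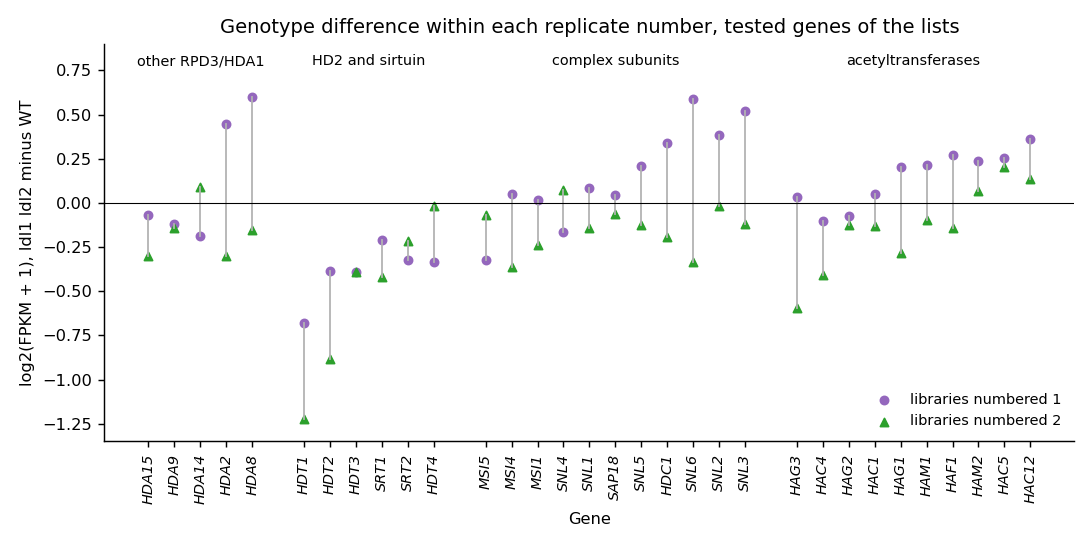
Log2 difference of FPKM + 1, *ldl1 ldl2* minus WT (vertical axis), within replicate number 1 (purple circles) and 2 (green triangles) for the tested genes of 4 lists, ordered in each list by their mean difference. The HD2 and sirtuin genes are all below 0 in both numbers, down to -1.22 in *HDT1*, while most genes of the other lists have 1 number on each side of 0.

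Genes for the subunits that HDA6 and HDA19 work with had differences on both sides of 0. All 11 genes for SIN3-like scaffolds (*SNL1* to *SNL6*), for the adaptors *SAP18* and *HDC1* and for the histone-binding proteins *MSI1*, *MSI4* and *MSI5* were tested, 0 passed, and the median log2 difference was -0.01. *MSI5* had the lowest value of the list, -0.20, from 2.17 then 2.117 FPKM in WT and 1.529 then 1.976 in *ldl1 ldl2*, and as deposited its libraries alone did not overlap between genotypes (background 13.3%). After median ratio rescaling *MSI5* overlapped, while *MSI1* (lower) and *SNL2* and *SAP18* (higher) did not, and after quantile normalization *MSI5*, *MSI1* and *SNL2* did not. *SNL3* had the highest, 0.20, from 7.42 then 13.56 FPKM in WT and 11.08 then 12.41 in *ldl1 ldl2*. Here the genotypes overlapped and WT replicate 1 stood lowest. As with *HDA19* and *HDA5*, 9 of the 11 were higher in replicate 2 of both genotypes (background 47.2%). After median ratio rescaling 7 were (background 38.1%), and after quantile normalization 8 (background 39.9%). Among the 9 was *MSI4*, also called *FVE*, which acts with HDA6 and FLD on *FLC*. It was at 10.2 then 18.29 FPKM in WT and 10.61 then 14.02 in *ldl1 ldl2*.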

How the data were processed

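Leaf RNA of 2 WT and 2 *ldl1 ldl2* replicates was sequenced as 100 bp paired-end reads. According to the study's methods, the authors aligned reads with TopHat2 and Bowtie2 and used Cufflinks with TAIR10 gene models for the FPKM of each library; the submitters' notes also name Trimmomatic 0.33. The values used here are the FPKM deposited by the authors, which are not counts, so no count test was run. An exact 0 can be a failed estimate.

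From these, log2(FPKM + 1) was computed without rescaling for loci with a mean of at least 1 FPKM. The 2 genotypes were tested by limma (version 3.58.1, R 4.3.3) (trend, two-sided, Benjamini-Hochberg over 16905 loci, threshold 0.05). The fit was also run on simulated data, with changes set only in genes at higher levels than the LDL genes and *HDA6*. Its outcome is not given here, and it is no check on genes at lower levels. Single genes also had an exact permutation test. Alternatives were a pseudocount of 0.1, no minimum or 0.1 FPKM, median ratio rescaling, quantile normalization, a replicate block and leaving out each library. The numbers of fragments came from the steps of low FPKM on transposable element loci of at least 1500 bases. Per library, 80.6% to 90.2% of 82 to 116 low values lay within 20% of a whole multiple of 1 fragment. The step was fitted to these same values, and the share expected without steps was not computed. These shares are therefore no check on the estimate.

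Proteins were translated from RefSeq coding sequences (TAIR10.1, matching 31893 loci) and aligned globally with Biopython 1.88 (BLOSUM62, gap open 10, extension 0.5). Named genes are the 7 genes, *CCA1*, *LHY*, *TOC1*, close paralogs, the highest and lowest gene of each list, and the 3 genes nearest in pattern to *LDL1* and *LDL2*; further list members were named after their values were seen. Members and lists were chosen with earlier results of these data known. *PAO3* was not analysed here.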

Additional observations from a re-analysis of the deposited data

How the results depend on the processing

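No alternative that kept all 4 libraries turned the sign of any of the 7 genes' genotype differences. None of the 7 passed under any alternative in which it was tested. With the replicate number as a block, 311 genes were higher and 37 lower in *ldl1 ldl2*, none of them among the 7 or the lists; the lowest adjusted p in the lists was then 0.0975, for *HDT1* (unadjusted p = 0.00281; 0.0257 for *HDT2*). The numbers were not taken to pair the samples, since there are only 2 pairs and the labels do not say what a number marks, although the replicate differences of the genotypes had a correlation across genes of 0.726. With 1 library left out, where the lone sample is assumed to vary like the others, 0 to 3 genes were higher and 0 to 1 lower. At a minimum of 0.1 FPKM with the block, an alternative added after seeing the data, *LDL2* had an adjusted p = 0.613 from limma. Of the 7 genes, only *LDL2* had both mutant libraries below both WT libraries, without a minimum and at a minimum of 0.1 FPKM. Over all loci, 2973 of 22654 did so without a minimum, and 13.9% of 20332 at 0.1 FPKM. The log2 difference of *LDL2* was -1.01 with a pseudocount of 0.1. Quantile normalization gave no value for *LDL2*, which is under the minimum. With that pseudocount, 87 genes were at least 2-fold lower within both numbers in place of 25.

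Leaving out a library reversed *LDL3* (-0.061 when WT replicate 1 was left out, -0.056 for *ldl1 ldl2* replicate 2), *FLD* (0.17 when WT replicate 2 was left out, 0.125 for *ldl1 ldl2* replicate 1), *HDA5* (0.35 and 0.07 without the same libraries) and *HDA19* (0.17 without WT replicate 2). Ranges were -0.19 to -0.03 for *LDL1*, -0.64 to -0.25 for *LDL2*, -0.061 to 0.26 for *LDL3*, -0.25 to 0.17 for *FLD*, -0.24 to -0.01 for *HDA6*, -0.73 to 0.35 for *HDA5* and -0.45 to 0.17 for *HDA19*. With a pseudocount of 0.1, median ratio rescaling and quantile normalization, the difference between numbers was 0.37, 0.19 and 0.18 for *LDL3* (0.32 as reported) and 0.46, 0.25 and 0.235 for *FLD* (0.38), and with the rescalings it was -0.29 and -0.29 for *HDA6* (-0.14) and -0.10 and -0.11 for *LDL1* (0.03), and 0.23 and 0.34 for *HDA19* (0.385). Median log2 differences without 1 library ran from -0.339 to 0.063 for the other RPD3/HDA1 genes, -0.45 to -0.44 for the HD2 and sirtuin genes, -0.27 to 0.24 for the subunits, -0.20 to 0.24 for the acetyltransferases and -0.516 to -0.015 for the polyamine oxidases; the HD2 and sirtuin median was -0.43 with a pseudocount of 0.1 and -0.31 after median ratio rescaling. Both the 2 libraries per genotype and the about 11 to 43 fragments per library limit what can be said of *LDL2*. The cause of these shifts was not tested.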

Other observations

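Enzymes that place acetyl groups on histones, the counterpart of the deacetylases, showed no common direction between genotypes. Of 12 histone acetyltransferase genes, 10 were tested and 0 passed, with a median log2 difference of 0.01. *HAC12*, a CBP/p300-type gene, had the highest difference, 0.25, from 4.6 then 7.603 FPKM in WT and 6.197 then 8.444 in *ldl1 ldl2*, and *HAG3*, the catalytic subunit of Elongator, had the lowest, -0.28, from 6.002 then 15.05 FPKM in WT and 6.178 then 9.635 in *ldl1 ldl2*. In *HAG3* the WT replicates were further apart than the genotypes. *HAM2*, a MYST-type gene, had libraries that did not overlap, at 8.167 then 9.765 FPKM in WT and 9.799 then 10.3 in *ldl1 ldl2* (background 8.25%). It stood alone in this as deposited, but *HAM1* (higher) and *HAC4* (lower) joined it after median ratio rescaling, and *HAC4* after quantile normalization. Of the 10 genes, 8 were higher in replicate 2 of both genotypes (background 47.2%). After either rescaling 7 were, with a background of 38.1% for median ratio rescaling and 39.9% for quantile normalization. *HAC2* and *HAF2* were at or under 0.0723 FPKM in every library.

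Polyamine oxidases carry the same kind of flavin-dependent amine oxidase domain as LDL proteins but act on polyamines outside chromatin. Of 4 such genes analysed, 3 were tested and 0 passed. *PAO4* was at 14.97 then 5.57 FPKM in WT and 12.11 then 6.767 in *ldl1 ldl2*. It was lower in replicate 2 of both genotypes (background 30.6%), which is the reverse of *LDL3* and *FLD*. *PAO5*, the gene with the lowest genotype difference of this list at -0.32, was at 12.66 then 9.453 FPKM in WT and 6.991 then 10.43 in *ldl1 ldl2*, with -0.77 in number 1 and 0.13 in number 2.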
